A study of Mus musculus with 16 samples.

Results

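Line 2883, grown from a mouse T-cell leukaemia of the acute lymphoblastic kind (T-ALL), was sequenced as 5 drug-resistant derivatives, and these derivatives are set against each other here. Each of them, cytarabine, etoposide, methotrexate, prednisone and vincristine, was compared with the mean of the other 4 on log2(FPKM + 1), to find what belongs to a single derivative. They were chosen by their labels, the line number and the drug, and make up 5 of the 16 libraries of the series. All 5 derivatives and the parental culture of the line carry the genotype Mcm2cre/cre, named Mcm2hypo in the labels, which lowers the replication helicase subunit Mcm2. The labels give thymus as the tissue and PBS as the treatment of the parental cells, and put every library in the same batch. The parental library of 2883 served here only to show on which side the starting culture lay. The other 10 libraries came from lines 2696, 2641 and 2869 (Mcm2cre/cre) and 7298 (SCL/LMO1 transgenic), each profiled as 1 or 2 derivatives and a parental culture, and were used to look for the same differences elsewhere. The labels do not say how a derivative was made, at which dose, or whether it is a clone, so drug and culture history cannot be told apart. Each derivative is 1 library, so no value below has a replicate error and no p-value is given for line 2883.

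T-ALL grows from precursors of T cells in the thymus that are still rearranging their receptor genes. Cytarabine is a nucleoside analogue that must be phosphorylated inside the cell before it enters DNA. Etoposide traps topoisomerase II on broken DNA, methotrexate is a folate analogue that blocks the supply of one-carbon units, prednisone is a glucocorticoid that acts through a nuclear receptor, and vincristine binds tubulin. Known routes to resistance are loss of the activating enzyme or receptor, a changed target, lower uptake, or export by the pump P-glycoprotein, which carries etoposide and vincristine.

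Promoters are shown for genes of the 2 groups in which many members differed in the same derivative, described in detail further on. The sequences are RefSeq promoter windows on GRCm38.p6, from 250 bases before the start of the gene to 50 after it, printed 5′ to 3′ on the strand of the gene. For Slc16a3 (chr11:120948817-120949116, plus strand), the lactate exporter, and Bnip3 (chr7:138909457-138909756, minus strand), a mitophagy receptor, the capitals mark ACGTG or its other-strand form CACGT, the core that hypoxia-inducible factors read.
Slc16a3: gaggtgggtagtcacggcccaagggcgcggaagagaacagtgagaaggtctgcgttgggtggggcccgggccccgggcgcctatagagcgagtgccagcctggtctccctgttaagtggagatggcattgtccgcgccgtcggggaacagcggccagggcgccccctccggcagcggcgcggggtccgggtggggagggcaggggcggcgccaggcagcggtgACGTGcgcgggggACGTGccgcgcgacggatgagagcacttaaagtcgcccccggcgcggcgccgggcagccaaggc
Bnip3: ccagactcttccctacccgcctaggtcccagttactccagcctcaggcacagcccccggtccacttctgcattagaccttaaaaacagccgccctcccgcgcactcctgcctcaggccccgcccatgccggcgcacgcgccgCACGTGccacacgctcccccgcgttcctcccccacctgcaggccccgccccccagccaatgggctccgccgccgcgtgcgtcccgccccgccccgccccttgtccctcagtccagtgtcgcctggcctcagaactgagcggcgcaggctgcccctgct
For the histone genes H2ac13 (chr13:21716162-21716461, plus strand) and H3c8 (chr13:23535168-23535467, plus strand), the capitals mark CCAAT or its other-strand form ATTGG, the box read by the factor NF-Y.
H2ac13: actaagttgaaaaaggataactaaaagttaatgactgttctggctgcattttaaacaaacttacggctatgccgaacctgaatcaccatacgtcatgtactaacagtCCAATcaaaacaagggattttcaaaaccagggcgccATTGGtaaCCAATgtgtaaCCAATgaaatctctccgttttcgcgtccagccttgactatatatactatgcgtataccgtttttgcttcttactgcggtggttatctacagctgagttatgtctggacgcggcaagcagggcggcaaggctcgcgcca
H3c8: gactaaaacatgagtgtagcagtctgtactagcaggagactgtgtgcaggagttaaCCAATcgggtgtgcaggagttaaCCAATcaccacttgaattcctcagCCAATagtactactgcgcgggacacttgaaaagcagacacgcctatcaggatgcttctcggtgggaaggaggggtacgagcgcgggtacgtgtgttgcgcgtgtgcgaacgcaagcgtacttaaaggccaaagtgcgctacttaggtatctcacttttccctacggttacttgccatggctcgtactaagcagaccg
The window of Slc16a3 holds ACGTG at 2 places, and that of Bnip3 holds 1 palindrome, CACGTG, which reads as a match on both strands and so counts as 2 overlapping matches. CCAAT stands at 4 places in the H2ac13 window and at 3 in that of H3c8. Over all 32851 windows of the table, ACGTG is found on either strand in 19.6% and CCAAT in 37.4%. The window of Pfkl, a glycolytic gene that differed in the same way as Slc16a3, holds no ACGTG. A match describes the letters and is no measurement of binding.

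The labelled cell type was checked first. All 20 listed T-lineage markers have a row in the table, and 17 of them were at 1 FPKM or more in all 5 derivatives, with sums of 558 to 817 FPKM. Most listed markers of other cell types have no row, so their check is less full. A row exists for 1 of 5 B cell, 2 of 6 myeloid and 1 of 3 natural killer markers. The same holds for 1 of 6 stromal and epithelial and 0 of 4 erythroid markers. The B cell marker Cd79b was at 0.0017 to 0.325 FPKM, and the myeloid markers Itgam and Cd68 together at 0.621 to 1.77 FPKM. The stromal marker Pdgfra was at 0.00139 to 0.17 FPKM. The natural killer marker Nkg7 reached 9.96 FPKM in the etoposide derivative and was between 0.297 and 0.45 FPKM in the other 4. Depth was 14064000 to 17195000 reads in the 5 derivatives, and 12144000 to 18953000 reads over all 16 libraries. FPKM here is divided by the whole span of a gene, introns included, so levels are compared between libraries and not between genes.

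A gene was counted as set apart when a derivative differed from each of the other 4 by at least 1 on the log2(FPKM + 1) scale, all in the same direction. This scale understates changes of low genes. Of 9058 genes with at least 1 FPKM in a derivative, 317 (3.5%) were set apart in at least 1 derivative, 17 of them in 2. The cytarabine derivative had 53 genes higher (0.585% of those tested) and 11 lower (0.121%). The etoposide derivative had 33 higher (0.364%) and 25 lower (0.276%), and the methotrexate derivative 31 higher (0.342%) and 28 lower (0.309%). In the prednisone derivative 39 were higher (0.431%) and 40 lower (0.442%), and in the vincristine derivative 37 were higher and 37 lower (0.408% each). In either direction these come to 0.707% of the tested genes for cytarabine, 0.64% for etoposide, 0.651% for methotrexate, 0.872% for prednisone and 0.817% for vincristine. A difference of 1 or more from the mean of the other 4 alone is a looser rule. It was met, higher and lower, by 1.71% and 1.19% of genes for cytarabine, 2.14% and 1.55% for etoposide, 1.25% and 1.93% for methotrexate, 1.52% and 2.14% for prednisone, and 1.77% and 1.61% for vincristine. Over all tested genes the cytarabine derivative was highest of the 5 in 20.2% and lowest in 15.6%, the etoposide derivative in 19.3% and 23.7%, the methotrexate derivative in 15.8% and 27.1%, the prednisone derivative in 24.6% and 17.4%, and the vincristine derivative in 20.1% and 16.3%. The surplus of higher genes in the cytarabine derivative was smaller with other scales: with a pseudocount of 0.1 it had 90 higher and 65 lower. The threshold cuts a continuous range, with 70 differences up to 0.1 above it and 123 up to 0.1 below it. The parental library lay nearer to the other 4 than to the set-apart derivative for 60 of 64 genes in the cytarabine derivative, 52 of 58 in the etoposide, 43 of 59 in the methotrexate, 57 of 79 in the prednisone and 66 of 74 in the vincristine derivative. Over all genes the spread of the difference (SD) between a pair of derivatives ran from 0.534, between etoposide and vincristine, to 0.616, between etoposide and prednisone.

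The cytarabine derivative was marked by lower Dck (chromosome 5, 88764996 to 88783282 on mm10), the kinase that puts the first phosphate on cytarabine. Dck was at 1.91 FPKM in the cytarabine derivative, against 7.62 in the etoposide, 5.44 in the methotrexate, 7.21 in the prednisone and 8.92 in the vincristine derivative, with 8.85 FPKM in the parental library. The cytarabine derivative stands alone below a range in which the other 4 and the parental library overlap. The ratio to the other 4 pooled was 0.261, with a 95% exact (Clopper-Pearson) interval of 0.240 to 0.284 that, like all intervals here, covers counting error only. Dctd, the deaminase that turns dCMP into dUMP, had 0 reads in the cytarabine derivative and 175 to 484 reads in the other 4, and was at least 130-fold lower against a floor of 3 reads. Rrm2, the regulatory subunit of ribonucleotide reductase, was at 58.8 FPKM in the cytarabine derivative and 24.1 to 42.3 FPKM in the others, short of the threshold with a smallest difference of 0.46. Of the 8 tested genes listed for cytarabine, Dck alone was set apart.

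Several thymocyte surface and homing genes were highest in the cytarabine derivative. Cd8a, a chain of the CD8 co-receptor, was at 68.2 FPKM in the cytarabine derivative, against 12.4 in the etoposide, 23.5 in the methotrexate, 3.57 in the prednisone and 21 in the vincristine derivative, with 19.9 FPKM in the parental library. Cd8b1, the other chain, was at 14.8 FPKM, against 1.86 to 5.59 in the others. Ccr9 (a receptor for a gut and thymus chemokine) was at 3.07 FPKM against 0.095 to 0.743, and Itgae (the integrin chain CD103) at 4.90 against 0.153 to 0.902. Over all tested genes, 0.585% were set apart higher and 0.121% lower in the cytarabine derivative. Of 21 tested thymocyte surface and recombination genes, 4 were set apart higher and none lower there. Their median difference was 0.41, against 0.03 over all genes. Of 15 tested homing and adhesion genes, 3 were set apart higher and none lower, with a median of 0.49. The lists share members, Ccr9 among them.

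Some of the genes set apart higher in the cytarabine derivative had few or no reads in the other 4, and others, such as Ly6d and Fcgr2b, were read there too. Bex2, a small X-linked gene, had 514 reads in the cytarabine derivative and 0 in each of the other 4, and was at least 150-fold higher against 3 reads per library. Crhbp, which binds corticotropin-releasing hormone, had 1648 reads, against 0 to 43 in the others. Fgfbp1, a carrier of fibroblast growth factors, was 76.3-fold above the other 4 pooled (49.8 to 123). Adam19, a membrane protease, was at 6.02 FPKM against 0.113 to 0.648. Ly6d, a surface protein of early lymphoid cells, was at 68.7 FPKM against 0.836 to 25.4. Fcgr2b (an inhibitory Fc receptor), Cd163l1, Armcx2 and Vim (vimentin) were also set apart higher. Hey1, a Notch target, had 114 reads against 0 to 5. Tubb3, a neuronal beta-tubulin known from resistance to tubulin drugs, was highest in the cytarabine derivative, at 4.99 FPKM, and was at 0.434 FPKM in the vincristine derivative. Among lower genes, Mt1 (metallothionein) was at 16.4 FPKM, against 44.9 to 106, and Ier2, an immediate early gene, at 0.424 against 4.23 to 18.7. Gpr83, a G protein-coupled receptor, had 3 reads in the cytarabine derivative and 197 to 1755 in the others. Tmem176b, Acy3 and Acot1 were lower as well. Bc1 was also lower, but it rests on 2 reads against 6 to 18, with a ratio of 0.155 (0.0183 to 0.595).

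The etoposide derivative had the lowest Top2a (chromosome 11, 98992943 to 99024190 on mm10), the topoisomerase II that etoposide traps. Top2a was at 16.5 FPKM in the etoposide derivative, against 47.3 in the cytarabine, 32.0 in the methotrexate, 34.5 in the prednisone and 41.9 in the vincristine derivative, with 40.1 FPKM in the parental library. The smallest difference, -0.91 to the methotrexate derivative, is short of the threshold, so Top2a does not count as set apart. The ratio to the other 4 pooled was 0.422 (0.412 to 0.432). Abcb1a, which encodes P-glycoprotein, was not particular to the etoposide derivative: it was at 42.5 FPKM there, and at 59.2 FPKM in the vincristine derivative, 0.0186 in the cytarabine and 0.00288 in the prednisone derivative, with 0 reads in the methotrexate derivative. Of 9 tested genes of this stretch of chromosome 5, Abcb1a included, all 9 were above the mean of the other 4 in the etoposide derivative (median 2.78) and all 9 in the vincristine derivative (median 2.60), and none was set apart in either. Sri, the calcium-binding protein sorcin, lies in the same stretch and did separate these derivatives: it was at 92.4 FPKM in the etoposide derivative, 12.5 in the vincristine derivative and 0.712 to 2.33 in the other 3. Adam22, its neighbour, had 1500 reads in the etoposide derivative and 11 in the vincristine derivative. Near-identical sequence between Abcb1a and Abcb1b leaves the split of reads between them uncertain.

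Tmsb4x (chromosome X, 167207093 to 167209316 on mm10), a gene for the actin-binding peptide thymosin beta 4, had 0 reads in the etoposide derivative. It was at 49.9 FPKM in the cytarabine, 26.6 in the methotrexate, 16.0 in the prednisone and 49.1 in the vincristine derivative, with 37.1 in the parental library, and was at least 373-fold lower in the etoposide derivative against 3 reads. The other lower genes there were Arhgap9 at 0.792 FPKM against 8.61 to 11.7, Il17rb (an interleukin 17 receptor chain) at 0.0665 against 2.97 to 4.91, Ngfr, Chdh, B3gnt6, Dusp9 and Kctd17. Rag1, a subunit of the recombinase that joins receptor gene segments, was at 71.1 FPKM against 164 to 233. Pbk, a mitotic kinase, was at 3.69 against 8.67 to 10.0. Higher genes included Clmp, an adhesion molecule with 4537 reads in the etoposide derivative and 0 in each of the others, at least 1672-fold. Shfl, an interferon-induced inhibitor of ribosomal frameshifting, was at 11.4 FPKM against 0.0318 to 1.91. Adm (adrenomedullin, a hypoxia-induced peptide) was at 10.9 FPKM against 0.0691 to 2.35, and Eno3, an enolase, at 11.9 against 0.341 to 1.68. Nkg7, a granule protein of cytotoxic cells, rests on 167 reads against 5 to 9. Mt1 and Ier2, lower in the cytarabine derivative, were both set apart higher in the etoposide derivative, at 106 and 18.7 FPKM.

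In the methotrexate derivative, Slc19a1 (chromosome 10, 77032241 to 77061003 on mm10), the reduced folate carrier that takes methotrexate into the cell, had 0 reads. The cytarabine derivative had 337 reads, the etoposide 413, the prednisone 687 and the vincristine 251, and the parental library 377. It was at least 125-fold lower against a floor of 3 reads. At 0.598 to 1.39 FPKM in the other 4 it is too low to reach the threshold of 1 on this scale, and it is described through its reads. Shmt2 and Mthfd2, mitochondrial enzymes of one-carbon metabolism, were lowest of the 5 in the methotrexate derivative, at 43.8 and 4.67 FPKM against 52.0 to 109 and 5.82 to 10.3, and were not set apart.

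Several genes of chromosome 13 were higher in the methotrexate derivative. Zcchc9, a zinc-finger protein gene, was at 236 FPKM, against 4.63 in the cytarabine, 4.34 in the etoposide, 3.82 in the prednisone and 5.58 in the vincristine derivative, with 4.35 in the parental library, and was 51.8-fold above the other 4 pooled (50.0 to 53.7). Serinc5, a membrane protein that lowers the infectivity of retroviruses, was at 35.8 FPKM against 1.23 to 1.39, and Zfyve16, an endosomal protein, at 24.0 against 0.625 to 0.942. Fam151b was at 7.93 against 0.0238 to 0.058, and Ssbp2 at 5.40 against 0.172 to 0.299. Rasgrf2, an exchange factor for Ras, had 4722 reads in the methotrexate derivative and 0 to 3 in the others. In each of these genes the other 4 derivatives lay close together and the parental library lay with them. Away from this chromosome, Tmsb10, thymosin beta 10, was highest at 91.7 FPKM, against 21.5 in the cytarabine, 21.5 in the etoposide, 2.28 in the prednisone and 33.6 in the vincristine derivative, so it was set apart both here and, lower, in the prednisone derivative. Tuba1c, an alpha-tubulin, was at 38.8 FPKM against 15.3 to 18.8.

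Xist, the RNA that coats the silenced X chromosome, was nearly lost in the methotrexate derivative. It had 5 reads there (0.0158 FPKM), and was at 49.8 FPKM in the cytarabine, 157 in the etoposide, 138 in the prednisone and 86.3 in the vincristine derivative, with 97.6 in the parental library. The 291 tested X-linked genes had a median difference of -0.07 in this derivative, the same as over all genes. Of these 291, 1 was set apart higher and 6 lower, where 0.342% and 0.309% of all tested genes were. The lower ones named by rank were Xist itself, Arxes2, Rtl8c, Dynlt3 (0 reads against 528 to 700), Ubqln2 and Tspan6 (0 reads against 307 to 519). Other lower genes were Txnip, an inhibitor of thioredoxin and glucose uptake, with 3 reads against 105 to 1468, and Cox6b2. Cd3e, a signalling chain of the T cell receptor, was at 13.6 FPKM in the methotrexate derivative against 33.6 to 59.1. Lef1, a T-lineage transcription factor, was at 1.82 against 5.25 to 8.41, and the Notch target Dtx1 at 3.92 against 10.3 to 13.2.

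The methotrexate derivative lacked more genes than any other of the 5. With missing defined as at most 3 reads in 1 derivative and at least 100 in each of the other 4, 33 of 13474 genes (0.245%) were missing there, 5 (0.0371%) in the cytarabine, 10 (0.0742%) in the etoposide, 6 (0.0445%) in the prednisone and 7 (0.052%) in the vincristine derivative. The parental library held 100 reads or more for 22 of the 33, and its depth was lower than that of each derivative. Missing genes of the methotrexate derivative included Gja1, a gap junction protein, with 0 reads against 616 to 2916, and Kif1a, an axonal motor, with 0 against 272 to 2151. Fn1 (fibronectin), Hexa (a lysosomal enzyme) and Maoa (monoamine oxidase A) also had 0 reads, and Tert, the telomerase catalytic subunit, had 1 read against 165 to 404. In the reverse case, at least 100 reads in 1 derivative and at most 3 in each other, 16 genes (0.119%) were present in the cytarabine derivative alone, 2 (0.0148%) in the etoposide, 8 (0.0594%) in the methotrexate, 9 (0.0668%) in the prednisone and 5 (0.0371%) in the vincristine derivative. Examples are Mapk10 with 454 reads for cytarabine, Ccnb3 with 1637 for methotrexate, Gria2 with 1262 and Sdc2 with 1040 for prednisone, and Rapgef5 with 595 for vincristine.

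In the prednisone derivative Nr3c1 on chromosome 18, the glucocorticoid receptor through which prednisone acts, was set apart lower. It was at 0.170 FPKM in the prednisone derivative, against 3.16 in the cytarabine, 4.42 in the etoposide, 3.06 in the methotrexate and 1.80 in the vincristine derivative, with 3.00 in the parental library. The ratio to the other 4 pooled was 0.0547 (0.0488 to 0.0611), on 318 reads. Of the 9 tested genes listed for prednisone, Nr3c1 alone was set apart. The apoptosis inhibitor Xiap had 0 reads in the prednisone derivative and 1840 to 2976 in the others, at least 888-fold lower. Ctsz, a lysosomal protease, had 0 reads against 391 to 1054.

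Several tubulin and surface genes were lowest in the prednisone derivative. Tubb2b was at 4.12 FPKM there, against 33.6 in the cytarabine, 12.1 in the etoposide, 33.5 in the methotrexate and 19.9 in the vincristine derivative, and Tuba1a at 4.65 against 15.6 to 36.4. Cd8a, highest in the cytarabine derivative, was set apart lower in the prednisone derivative, at 3.57 FPKM. Lgals1 (galectin 1) was at 0.468 FPKM against 2.97 to 13.7, H2-D1, a class I histocompatibility gene, at 2.60 against 7.71 to 12.0, and Gzma (granzyme A) at 5.08 against 12.6 to 56.1. Cox6a2, a respiratory chain subunit of muscle, was at 0.799 against 7.09 to 25.6. Among higher genes, Tnfaip2, induced by tumour necrosis factor, was at 18.4 FPKM against 0.0607 to 0.719, and the transcription factor Ets2 at 17.1 against 0.924 to 5.5. H19, an imprinted RNA, had 240 reads against 0 to 24. Aldoc, Fut4, Gprasp2, Tceal8 and Gpr83 were also set apart higher, and Lmcd1, at 2.46 FPKM against 0.116 to 0.789, came within 0.05 of the threshold with a smallest difference of 0.95.

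Of 13 tested genes listed for vincristine, among them tubulins, stathmin, Abcb1a and Abcb1b, none was set apart in the vincristine derivative in either direction. Of these, 10 lay above the mean of the other 4 and 4 were highest of the 5. Abcb1a and Abcb1b were 4.54 and 2.29 above that mean, and are shared with the etoposide derivative as described above. Stmn1 (stathmin, which destabilises microtubules) was highest of the 5 at 109 FPKM against 55.4 to 74.9. The clearest gene was Barx1 (chromosome 13, 48662998 to 48666508 on mm10), a homeobox factor, with 2727 reads (53.2 FPKM) in the vincristine derivative and 0 reads in each of the other 4 and in the parental library, at least 976-fold higher. Bex4 was at 56.3 FPKM against at most 0.365, and Gstm1, a glutathione transferase, at 6.53 against 0.507 to 1.99. Ifitm3, an interferon-induced membrane protein, rests on 57 reads against 1 to 19. Sapcd1, with 0 reads against 82 to 541, had the largest difference among lower genes once predicted models and receptor segments, Ighm among them, were left out. Bhlhe40, a hypoxia- and clock-linked repressor, was at 1.42 FPKM in the vincristine derivative, against 11.8 in the cytarabine, 18.2 in the etoposide, 9.63 in the methotrexate and 13.4 in the prednisone derivative. Cd2, an adhesion receptor of T cells, was at 0.643 against 5.53 to 11.2, Id2, an inhibitor of E proteins, at 3.81 against 9.09 to 24.1, and Mtf2, a Polycomb partner, at 2.22 against 8.69 to 13.7. The class I genes H2-Q4 and H2-T22, which have close copies, were at 0.339 against 2.05 to 6.32 and at 4.8 against 11.2 to 19.9. Tmem185b was lower too.

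Glycolysis and hypoxia genes were low in the vincristine derivative and high in the etoposide derivative. Of 39 listed, 35 were tested. In the vincristine derivative 33 of the 35 lay below the mean of the other 4 and 30 were lowest of the 5, with a median difference of -1.03, against 0.02 over all genes. In the etoposide derivative 33 of the 35 lay above the mean of the other 4 and 26 were highest of the 5, with a median of 0.95, against -0.02 over all genes. The methotrexate derivative had a median of 0.41, the prednisone derivative 0.06 and the cytarabine derivative -0.17. Aldoa, an aldolase, was at 39.6 FPKM in the vincristine derivative, against 74.7 in the cytarabine, 150 in the etoposide, 117 in the methotrexate and 71.0 in the prednisone derivative. The parental library, at 53.8 FPKM, lay between the vincristine derivative and the others. Pfkl, a phosphofructokinase, was set apart in both directions, at 2.94 FPKM in the vincristine derivative and 18.8 FPKM in the etoposide derivative, with 7.39 to 8.68 FPKM in the other 3.

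The transporter Slc16a3 was at 1.20 FPKM in the vincristine derivative, against 6.21 in the cytarabine, 18.1 in the etoposide, 10.9 in the methotrexate and 5.21 in the prednisone derivative, with 3.33 in the parental library. Ndrg1, a stress-induced gene, was at 2.31 FPKM against 9.17 to 25.1, and Bnip3 at 0.984 against 3.13 to 10.7. These 3 and Pfkl were the list members set apart lower in the vincristine derivative, where 0.408% of all tested genes were. Ddit4, an inhibitor of mTORC1 signalling that hypoxia and stress induce, was set apart higher in the etoposide derivative, at 246 FPKM against 30.2 to 95.9. Vegfa, the vascular growth factor, was at 2.02 FPKM in the vincristine derivative and 4.59 to 9.84 in the others. The parental library, at 1.82 FPKM, lay nearest to the vincristine derivative for this gene. The exceptions on the low side were Slc16a1, another lactate transporter, with a difference of 0.06, and Aldoc, with 0.29. Eno1b, a near copy of Eno1 that may take its reads, was at 54.2 FPKM in the vincristine derivative against 118 to 352.

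**Figure D1:**
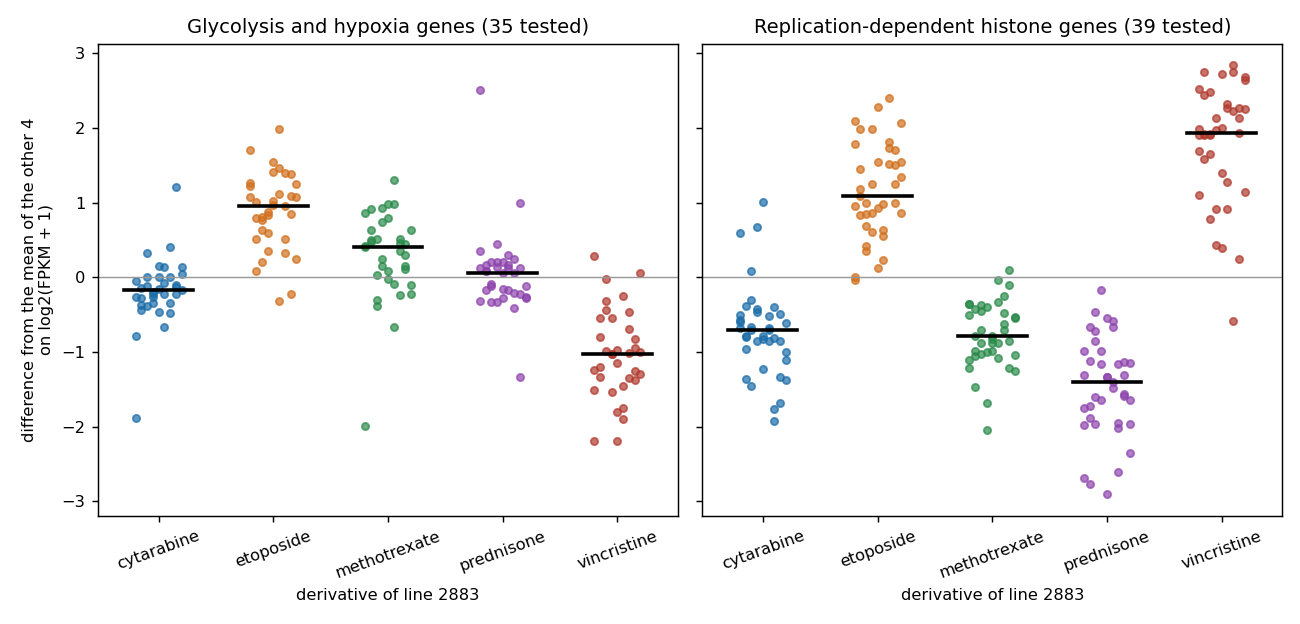
Difference of each derivative of line 2883 from the mean of the other 4 on log2(FPKM + 1), 1 point per gene, for 35 glycolysis and hypoxia genes (left) and 39 replication-dependent histone genes (right). Black bars are medians. The vincristine derivative is low on the left (median -1.03) and high on the right (1.93), and the etoposide derivative is high on both sides (0.95 and 1.09).

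Replication-dependent histone genes, which are transcribed in S phase, were higher in the vincristine and etoposide derivatives than in the other 3. Each difference is taken from the mean of the other 4, so high values in these derivatives lower the differences of the rest. Of 41 found in the table, 39 were tested. In the vincristine derivative 38 of the 39 lay above the mean of the other 4, with a median of 1.93, against 0.02 over all genes. There 9 were set apart higher, as were 0.408% of all tested genes. In the etoposide derivative 37 lay above the mean of the other 4, with a median of 1.09, against -0.02 over all genes. The prednisone derivative had all 39 below it, with a median of -1.40, against 0.04 over all genes. There 5 were set apart lower, as were 0.442% of all tested genes. The methotrexate derivative had a median of -0.79 and the cytarabine derivative -0.71, against -0.07 and 0.03 over all genes. H3c8 was at 22.4 FPKM in the vincristine derivative, against 2.98 in the cytarabine, 7.62 in the etoposide, 2.62 in the methotrexate and 1.43 in the prednisone derivative, with 3.49 in the parental library. The cytarabine and methotrexate derivatives thus lay close to the parental level of this gene. H2ac13 was at 16.9 FPKM in the vincristine derivative against 1.28 to 6.03. H3c11 was set apart at both ends, at 20.7 FPKM in the vincristine derivative and 0 reads in the prednisone derivative. H2bc12 ran differently, highest in the etoposide derivative at 48.8 FPKM and at 5.89 to 10.4 FPKM in the other 4. Most of these messages normally end in a stem-loop without a poly(A) tail, and the libraries were made with an mRNA kit. The genes are short and some rest on few reads, as H3c8 does with 174 reads in the vincristine derivative and 13 to 57 in the others. How far RNA selection moved with these differences was not tested. Replication and Mcm helicase genes, 29 tested, had medians of -0.09 to 0.11 over the 5 derivatives.

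Some other groups had median differences smaller than 1, with most members on the same side in a derivative. The 80 cytosolic ribosomal protein genes were above the mean of the other 4 in 78 cases in the methotrexate derivative (median 0.43), and below it in 78 cases in the cytarabine (median -0.36) and 69 in the prednisone derivative (median -0.44). None was set apart. Of 31 mitosis genes, 30 lay above the mean of the other 4 in the cytarabine derivative (median 0.33) and 28 in the prednisone derivative (median 0.29). In the methotrexate derivative 29 lay below it and in the etoposide derivative 25 (median -0.30 in both), and Pbk in the etoposide derivative was the 1 gene set apart. Of 30 genes of the integrated stress response, 28 lay below the mean of the other 4 in the methotrexate derivative (median -0.44) and 25 in the prednisone derivative (median -0.30). In the etoposide derivative 23 lay above it (median 0.39, with Ddit4 set apart), and in the cytarabine derivative 28 (median 0.27). DNA repair genes, 22 tested, and BCL2 family genes, 9 tested, held no gene set apart in any derivative.

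The derivatives differed in the T cell receptor beta segment they carried, with 1 leading segment shared by etoposide and vincristine and another by methotrexate and prednisone. A rearranged receptor gene marks the descendants of the cell in which it was joined, and the share of each variable segment among reads of the 17 Trbv genes in the table can therefore differ between cell lineages. In the cytarabine derivative Trbv12-1 took 91.0% of 3935 reads (Wilson 95% interval 90.0% to 91.8%). In the etoposide derivative Trbv12-2 took 99.2% of 4462 reads, and in the vincristine derivative 93.9% of 5273 reads with Trbv5 at 5.92%. In the methotrexate derivative Trbv31 took 91.9% of 1599 reads with Trbv19 at 6.63%, and in the prednisone derivative Trbv31 took 68.0% of 615 reads with Trbv5 at 31.7%. In the parental library Trbv19 led with 50.1% of 2555 reads, followed by Trbv31 with 17.4% and Trbv12-1 with 11.0%. Segments that led in a derivative were thus all found among the parental reads, Trbv12-2 with 32 reads. The constant segment Trbc1 was at 303 FPKM in the cytarabine, 16.8 in the methotrexate and 0.153 in the vincristine derivative, and had 0 reads in the etoposide and prednisone derivatives. Trbc2 was read in all 5, at 52.5 to 457 FPKM. Segments of this family resemble each other, and how the authors' counting split shared reads is not given in the sources used here.

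The gamma chain differed too. Trgv4 and Trgc1 were at 29.9 and 15.2 FPKM in the cytarabine derivative, and at most 0.0134 and 0.132 FPKM in the other 4. Trgv1, Trgv2, Trgc2 and Trgc4 were all lowest in the vincristine derivative. Trgc2, for example, was at 6.04 FPKM there, against 49.3 in the cytarabine, 85.1 in the etoposide, 42.3 in the methotrexate and 80.6 in the prednisone derivative. Ighm, the immunoglobulin mu chain gene, was at 1.69 FPKM in the vincristine derivative against 16.9 to 45.7.

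**Figure D2:**
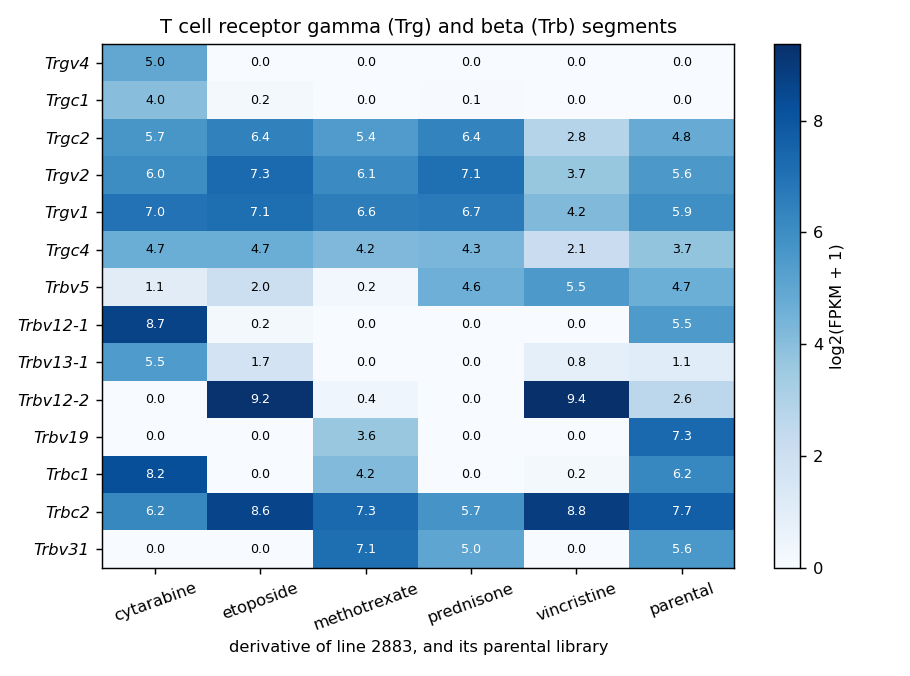
Level of T cell receptor gamma and beta segments in the 5 derivatives of line 2883 and its parental library, in log2(FPKM + 1), printed in each cell. The leading beta variable segment is Trbv12-1 for cytarabine, Trbv12-2 for etoposide and vincristine, and Trbv31 for methotrexate and prednisone.

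Neighbouring genes of the Armcx, Bex and Tceal families on the X chromosome were read in different derivatives. Armcx2, Armcx3 and Armcx6 and Bex2 were highest in the cytarabine derivative, with Armcx3 at 280 reads against 0 or 1. Tceal8 had 369 reads in the prednisone derivative and 0 to 2 in the others. Bex4 and Arxes1 were set apart in the vincristine derivative, with 1190 reads against 0 to 9 and 172 against 0 to 3. Arxes2 was lower in the methotrexate derivative, at 0.886 FPKM against 10.8 to 23.0. Bex1 showed the opposite case: it was at most 0.141 FPKM in all 5 derivatives and 27.6 FPKM in the parental library. Bex3 and Tceal9, from the same stretch, were read in all 6 libraries at similar levels, 56.8 to 90.6 and 45.1 to 72.7 FPKM in the derivatives.

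**Figure D3:**
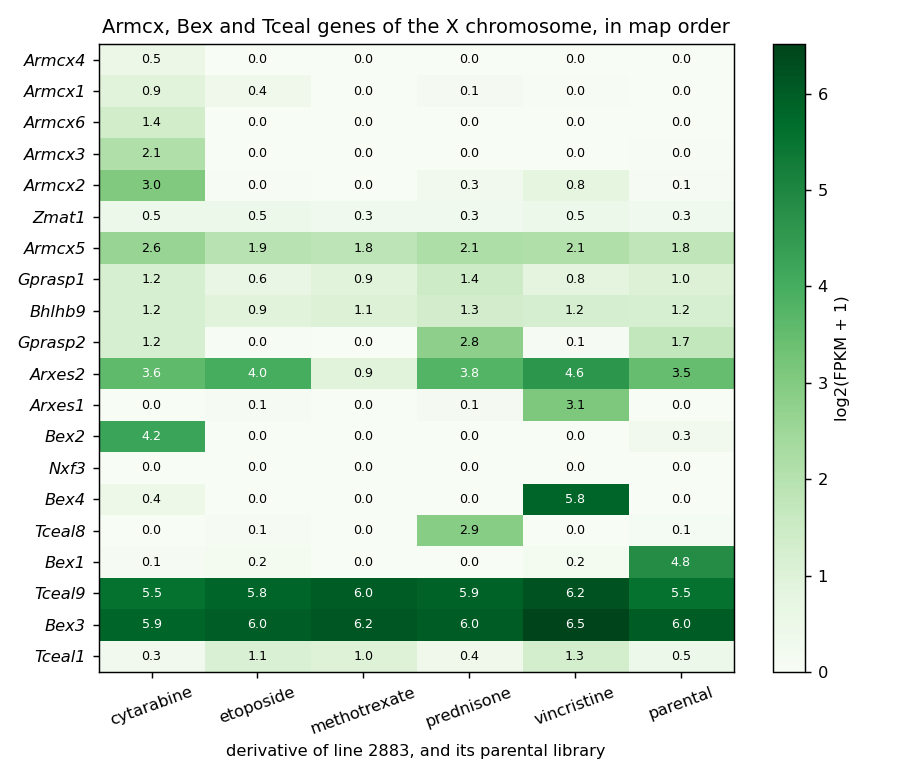
Level of 20 Armcx, Bex, Tceal and neighbouring genes of the X chromosome in map order, in log2(FPKM + 1), for the 5 derivatives of line 2883 and the parental library. Among the derivatives, Bex2 had reads in the cytarabine derivative alone, and the parental library had 4. Tceal8 (prednisone) and Bex4 (vincristine) had at most 2 and 9 reads in any other derivative, and Bex3 and Tceal9 were read in all.

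By chromosome, the vincristine derivative stood out on chromosome 8. Of 481 tested genes there, 433 lay below the mean of the other 4, with a median of -0.47, and 349 (72.6%) were lowest of the 5. The shift was even along the chromosome, with medians of -0.43 to -0.50 in each piece of 20 Mb. In the other derivatives the median of chromosome 8 ran from -0.01 to 0.17. The 15 tested mitochondrial genes went the other way, with a median of 0.66 in the vincristine derivative, and mitochondrial reads were 5.53% of its library against 3.78% to 4.30% in the other 4. On chromosome 14 the etoposide derivative had a median of -0.25, with 213 of 296 genes below the mean of the other 4. This was uneven, with -0.57 from 60 to 80 Mb and from 100 to 120 Mb and -0.11 from 40 to 60 Mb. The methotrexate derivative had 0.21 on chromosome 14. Copy number was not measured, so its part in these differences was not tested.

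**Figure D4:**
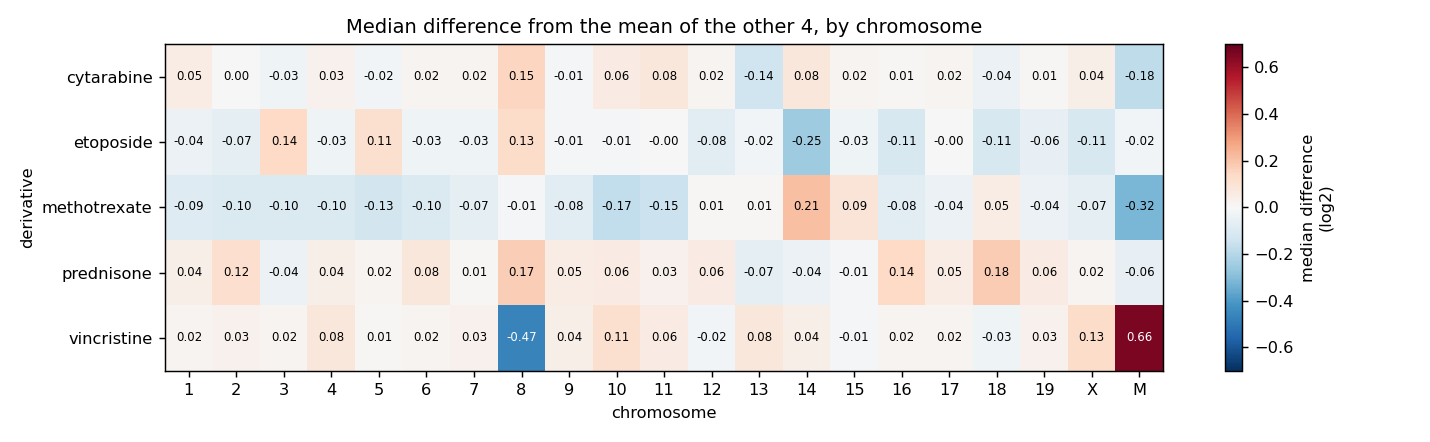
Median difference of each derivative of line 2883 from the mean of the other 4 on log2(FPKM + 1), by chromosome. Chromosome 8 (-0.47) and the mitochondrial genes (0.66) of the vincristine derivative are farthest from 0. The mitochondrial genes of the methotrexate derivative (-0.32) and chromosome 14 of the etoposide derivative (-0.25) follow.

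The same drugs in other lines give libraries that the comparison within 2883 did not use. There each derivative was set against the parental library of its own line, at a difference of at least 1 in the same direction. Of the 37 genes set apart lower in the vincristine derivative of 2883, 16 were lower in the vincristine derivative of 2696, where 3.04% of all genes were, and 13 in that of 2869, where 1.69% were. Both counts include predicted models and pseudogene copies, Gm4735, Gm5537 and Pgk1-rs7 among them, which were left out of the named genes. Copies that share reads would be counted more than once. In the opposite direction, 1 of the 37 was higher with vincristine in 2696 (1.39% of all genes) and 3 in 2869 (2.5%). Sapcd1 was lower in both lines, at 2.02 FPKM in the vincristine derivative of 2696 against 11.7 in its parental library, and at 5.55 FPKM in that of 2869 against 15.9. Bhlhe40 was at 1.48 FPKM in the vincristine derivative of 2696 against 15.8 in its parental library, Ndrg1 at 0.260 against 11.3, and Bnip3 at 0.0843 against 3.15. Such falls were not limited to vincristine. In the prednisone derivative of 2641, Sapcd1 was at 1.91 FPKM against 8.07 and Bhlhe40 at 2.30 against 11.7. Bhlhe40 was below the parental library in every derivative outside 2883. Bnip3 was at 0.457 against 4.85 with cytarabine in 7298, but at 1.22 against 0.812 with vincristine in 2869. For the 35 glycolysis and hypoxia genes the median was -1.73 against the parental library in the vincristine derivative of 2696 and -0.06 in that of 2869. It was below 0 in the other 4 derivatives as well, at -1.02 for cytarabine in 7298, -0.62 for prednisone in 2641, and -0.29 for both cytarabine in 2869 and etoposide in 2696. The etoposide derivative of 2696, with 28 of 35 genes below its parental library, thus lay on the opposite side from that of 2883, which was measured against the other derivatives. The class I genes H2-T22 and H2-T10 were lower in the vincristine derivative of 2869, at 4.33 against 27.4 and 2.05 against 29.5 FPKM. Of the 37 genes set apart higher, 4 were higher in the vincristine derivative of 2696 (1.39% of all genes), 3 of them histones (H2ac13, H3c8 and H3c1). In that of 2869, 0 were higher (2.5% of all genes). Lower instead were 2 of the 37 in 2696 (3.04%) and 3 in 2869 (1.69%). Chromosome 8 had a median of 0.02 in the vincristine derivative of 2696 and -0.12 in that of 2869.

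For the other drugs few genes recurred. Dck was listed at 0.000309 FPKM, no more than the constant added for 0 reads, in the cytarabine derivative of 7298 against 5.65 in its parental library, the only one of 11 lower genes to recur there (1.13% of all genes). In line 2869 Mt1 was the only one, at 0.00474 against 25.9 FPKM (1.49% of all genes). Cd8a was among 4 of 53 higher genes that recurred there (1.57%), at 135 FPKM in the cytarabine derivative against 54.2. Another 4 of the 53 were lower there instead (1.49%). In line 7298 Cd8a went the opposite way, at 0.4735 FPKM in the cytarabine derivative against 2.03. Mt1 was also lower with other drugs, at 0.191 FPKM in the vincristine derivative of 2869. In the prednisone derivative of 2641 it was at 0.00423 against 5.86. Adam19 and Crhbp were higher in the cytarabine derivative of 7298 (2 of 53, 0.464% of all genes), and 1 of the 53 was lower there (1.13%). Dctd is too low to reach a difference of 1 on this scale and is not in these counts. It was at 0.000109 FPKM in the cytarabine derivative of 2869 against 0.602 in its parental library. In that of 7298 it was at 0.692 against 0.624. In the etoposide derivative of 2696, 0 of 33 higher genes recurred (0.806% of all genes), and 2 were lower instead (1.12%). Of 25 lower genes, 1 recurred (1.12%) and 0 were higher instead (0.806%). The gene that recurred was Tmsb4x, at 11.6 FPKM against 134. Its fall was not limited to etoposide: with vincristine in 2696 it was at 14.95 FPKM. With prednisone in 2641 it was at 0.00237 against 4.27, and with cytarabine in 7298 at 58.1 against 121. Top2a was at 11.3 FPKM in the etoposide derivative of 2696, against 41.7 in the parental library. In the prednisone derivative of 2641, 3 of 39 higher genes recurred (0.729% of all genes) and 1 was lower instead (1.47%). Of 40 lower genes, 5 recurred (1.47%) and 2 were higher instead (0.729%). The 5 were Nr3c1 at 0.00489 against 5.86 FPKM, Cd8a at 4.23 against 25.4, Cox6a2, H3c11 and Ltb. Cox6a2 was also lower in 2869, at 2.11 with cytarabine and 1.71 with vincristine against 18.7, but higher with cytarabine in 7298. Tuba1a, lower in 2883, was at 24.4 FPKM in 2641 with prednisone against 11.0, and Tubb2b at 11.9 against 6.365. Methotrexate was used in line 2883 alone.

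The 10 libraries outside line 2883 allow a test, made with limma across 9309 genes with 1 term per line and 1 per drug and Benjamini-Hochberg adjustment. It has 2 residual degrees of freedom, and etoposide and prednisone are 1 derivative each, assumed to vary like the others. Vincristine had 1 gene below an adjusted p of 0.05 (0.0107% of those tested), and 1276 genes (13.7%) at an unadjusted p under 0.05. That gene was Xist, the transcript nearly lost in the methotrexate derivative of 2883, with a log2 difference of -7.23 ± 0.22 (SE, 2 derivatives) and a limma adjusted p of 0.00917. Xist was at 0.0661 FPKM in the vincristine derivative of 2696 against 158 in its parental library, and at 0.00279 in that of 2869 against 131, while the vincristine derivative of 2883 had 86.3 FPKM. The loss was not seen with vincristine alone: Xist was also at 0.00715 FPKM in the prednisone derivative of 2641 against 8.79 in its parental library. The call is lost, with 0 genes, when any of 6 of the 10 libraries is left out. No gene passed limma's adjusted threshold for cytarabine (0 genes; 531, or 5.7%, with an unadjusted p under 0.05), for etoposide (0; 334, or 3.59%) or for prednisone (0; 451, or 4.84%). Among genes set apart in 2883, Nr3c1 had a log2 difference of -2.77 ± 0.39 for prednisone (limma adjusted p = 0.728), Dck -1.59 ± 0.52 for cytarabine (0.754), Sapcd1 -1.61 ± 0.28 for vincristine (0.262) and Tmsb4x -2.73 ± 0.88 for etoposide (1.0), none of which passed.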

How the data were processed

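RNA from 16 cultures was sequenced with the Illumina Stranded mRNA Prep kit, per the labels' protocols. The authors deposited 1 table of FPKM values. Per the submitters' processing notes, cutadapt, STAR, Partek and the mm10 build were used; no version or counting method is given in those notes. In all 13474 rows gene length is stop minus start, and the values hold a constant of 0.1 read per gene. Reads were derived as FPKM times length times the depth implied by steps between low values. In the 16 libraries 69.97% to 75.78% of values between 0.5 and 200 reads lay within 0.05 of a whole read, too few for a count test. Coordinates are mm10 unless RefSeq is named.

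Differences are log2(FPKM + 1) of 1 derivative minus the mean of the other 4. Set apart means at least 1 from each of the other 4, for genes at 1 FPKM or more in a derivative. Folds divide depth-scaled reads by those of the other 4 pooled, with 95% exact (Clopper-Pearson) intervals and a floor of 3 reads. Named were up to 8 genes per derivative and direction by size, leaving out predicted models, pseudogene copies and receptor segments, plus drug resistance genes, genes present or missing, and up to 4 members of a list. Members and lists were chosen with earlier results of these data known. Histones, ribosomal proteins and the X-linked stretch were added after their values were seen, as were Adam22, Aldoa, Vegfa and the list exceptions. Some genes picked by the naming rule are not reported here. The line is the block that pairs derivative and parental library in limma 3.58.1 (R 4.3.3; lmFit, eBayes with trend), two-sided, for genes at 1 FPKM or more in 2 libraries. Python 3.11.15, pandas 2.3.3, numpy 2.4.6, scipy 1.17.1 and matplotlib 3.10.9 were used. Scripts were tested on simulated data.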

Additional observations from a re-analysis of the deposited data

How the results depend on the processing

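With 1 library per derivative, counts of genes set apart depend on the scale and on how strict the comparison is. In the order cytarabine, etoposide, methotrexate, prednisone and vincristine, the counts were 64, 58, 59, 79 and 74. They were 155, 205, 214, 189 and 179 with a pseudocount of 0.1, and 142, 191, 206, 162 and 162 on log2(CPM + 1). Both scales give low genes more weight and moved the share of higher genes: to 58.1% and 62.7% from 82.8% for cytarabine, to 46.8% and 50.3% from 56.9% for etoposide, to 29.0% and 25.7% from 52.5% for methotrexate, to 42.9% and 47.5% from 49.4% for prednisone, and to 34.1% and 33.3% from 50% for vincristine. A filter of 1 FPKM in 2 of 16 libraries gave 41.7% for methotrexate. Asking for a difference of 2 left 14, 10, 15, 9 and 12 genes, and using the mean of the other 4 alone gave 263, 334, 288, 332 and 306. Leaving out each other derivative in turn gave 88 to 96, 79 to 126, 76 to 121, 99 to 142 and 88 to 138 genes, since fewer comparisons must be met. The counts moved by over 1.5 times for etoposide without cytarabine (102), methotrexate (102) or vincristine (126), for methotrexate without prednisone (121), for prednisone without cytarabine (127) or methotrexate (142), and for vincristine without etoposide (138). Median-of-ratios scaling, quantile normalization, no filter and the filter in 2 libraries kept all 5 counts within 1.5 times. Of 167 differences of named genes, 0 changed direction under any of these scales, scalings and filters, but the size moved for 131 with a pseudocount of 0.1, 121 on log2(CPM + 1), 58 with quantile normalization and 45 with median-of-ratios scaling. In limma outside line 2883, vincristine called 2 genes with a pseudocount of 0.1, on log2(CPM + 1) and with quantile normalization, and 0 with no filter. Etoposide called 1 with quantile normalization. Without the replicate block (the line, which pairs derivative and parental libraries), etoposide called 2 genes and vincristine 0, with cytarabine and prednisone at 0. Leaving out each library gave 0 to 1 for vincristine and 0 to 0 for the other 3 drugs; etoposide and prednisone could not be fitted without their own libraries.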

Other observations

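Gene groups not described so far also differed between the derivatives of line 2883, given as values only. Sterol synthesis genes, 24 tested, had a median difference of -0.30 in the vincristine derivative, with 20 below the mean of the other 4, and of 0.20 in the methotrexate derivative. Fatty acid synthesis genes, 10 tested, had a median of 0.41 in the etoposide derivative, where 8 were highest of the 5, and of -0.33 in the vincristine derivative, where 6 were lowest. Proteasome genes, 32 tested, lay above the mean of the other 4 in 30 cases in the vincristine derivative, with a median of 0.24. PI3K, AKT and FOXO genes lay below it in 12 of 12 cases in the methotrexate derivative, with a median of -0.32, and Notch receptors and targets in 9 of 10, with a median of -0.59. None of the sterol, fatty acid, proteasome and PI3K genes was set apart in any derivative. T cell receptor signalling genes, 16 tested, had medians of 0.42 in the cytarabine and -0.33 in the prednisone derivative, and likewise none was set apart.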
